A study of Mus musculus with 55 samples.

Results

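Untreated CTCF-AID cells were compared with CCNA-GFP cells in early G1, at 90 and 120 min after release from mitotic arrest, over the 9574 genes listed for both lines. Each line has its own table, so these genes are the overlap of 2 lists that together hold 10574 genes, with 337 genes listed only for CCNA-GFP and 663 only for CTCF-AID. Both lines derive from E14Tg2a mouse embryonic stem (ES) cells of strain 129/Ola and were grown in serum and LIF. Cells of both lines were held for 4 h in 10 μM RO-3306, which blocks the kinase CDK1, and for 4 h in 50 ng/ml nocodazole, which stops spindle assembly, before mitotic cells were shaken off and released. CCNA-GFP cells express a cyclin A reporter of the cell cycle and were otherwise untreated. CTCF-AID cells form a single clone in which auxin (IAA) triggers the breakdown of CTCF, and the libraries used here received no IAA. The comparison rests on 8 early G1 libraries, replicates 1 and 3 at 90 min and replicates 1 and 2 at 120 min in each line, and on 3 mitotic libraries per line, out of 55 libraries in all.

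Transcription is largely silent in mitosis, and it restarts as chromosomes decondense and nuclei re-form. Unspliced pre-mRNA is short-lived, so its level follows ongoing transcription more closely than the level of mature mRNA does. CTCF is a DNA-binding protein that, with the ring-shaped cohesin complex, shapes chromatin loops. A degron line before depletion is the reference against which loss of the protein is usually read, and the comparison here asks how that reference leaves mitosis beside another ES line.

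Every value below is a pre-mRNA level in TPM, or a log2 fold change, log2((TPM + 1)/(mitotic TPM + 1)), taken within a line and a replicate. TPM is meant as a length-corrected share of the transcripts of a library. Low values, the only ones checked, are listed in steps that differ between libraries. The steps were 2.17 to 2.80 times 0.01 TPM in CTCF-AID and 2.73 to 3.67 times in CCNA-GFP, taken here as a factor of each library. Each replicate gave 1 early G1 value, the mean of both times for replicate 1, the 120 min value for replicate 2 and the 90 min value for replicate 3. A gene was called where limma gave an adjusted p under 0.1 and the lines differed by more than 0.2. Of 8 ES cell markers, 7 were analysed here, and all 7 were detected in every early G1 library of both lines. The pre-mRNA of Zfp42, a marker of naive ES cells, lay between 28.4 and 34.2 TPM in CCNA-GFP and between 38.3 and 63.0 TPM in CTCF-AID, and that of Pou5f1 (Oct4) between 10.9 and 18.5 and between 8.21 and 12.6 TPM. Markers of other cell types summed to less than the pluripotency genes. The summed level of the trophoblast markers ran from 5.25 to 10.8 TPM in early G1 of CCNA-GFP and from 5.06 to 9.50 TPM in CTCF-AID. The pluripotency genes summed to 189 to 245 TPM over 26 genes listed for CCNA-GFP and 176 to 260 TPM over 27 listed for CTCF-AID. The sum for 2-cell-like markers was 8.49 to 12.9 TPM over 4 genes listed for CTCF-AID and 14.7 to 24.6 TPM over 7 genes listed for CCNA-GFP, and the sum for fibroblast markers 8.30 to 16.1 TPM over 5 genes and 9.82 to 15.2 TPM over 2, so that neither pair can be compared. Markers of early lineages, 5 in each table, summed to 5.98 to 12.2 TPM in early G1 of CTCF-AID and 6.02 to 10.6 TPM in CCNA-GFP. In mitosis they summed to 7.76 to 9.63 and 3.94 to 4.85 TPM, without overlap. A higher mitotic level in CTCF-AID was not particular to these markers, since 82.3% of all genes had it. Primitive endoderm markers summed to at most 5.66 TPM. Of these marker genes limma called Krt8 (-0.46), Tead4 (-0.27), Fn1 (-0.97), Tubb3 (-0.91), Zscan4c (-0.22) and Eif1a (-0.84) lower in CTCF-AID and none higher. Among markers measured in both lines these were 2 of 6 for trophoblast, 1 of 2 for fibroblasts and 1 of 5 for early lineages. They were 2 of 4 for 2-cell-like cells and 0 of 2 for primitive endoderm, while 56% of all genes were called lower. The part of the marker genes in the results below was not tested. In such bulk samples fewer cells of a type and less RNA per cell cannot be told apart.

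On the TPM scale of the tables, most genes rose less from mitosis in CTCF-AID than in CCNA-GFP. Over the 9574 genes, the median log2 fold change from mitosis was 0.40 ± 0.10 (SD, n = 3) in CTCF-AID and 0.73 ± 0.06 in CCNA-GFP. As ratios of TPM + 1 to the mitotic value these are 1.32 and 1.66, and the added 1 TPM makes them smaller than ratios of TPM. The 3 CTCF-AID replicates lay at 0.30, 0.40 and 0.51 and the 3 CCNA-GFP replicates at 0.69, 0.70 and 0.80, without overlap. The exact two-sided permutation test gave p = 0.1, the smallest value that 3 replicates against 3 allow. At 90 min the medians were 0.32 and 0.51 in CTCF-AID and 0.73 and 0.80 in CCNA-GFP. At 120 min they were 0.29 and 0.40 against 0.65 and 0.70. The CTCF-AID libraries were thus lower at both times, and with 2 replicates per line at a time the exact test could not go below p = 0.333.

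At 40 and 60 min the medians of the lines overlapped, and at 50 min those of CTCF-AID, 0.63 in both replicates, lay above the 0.58 of the single CCNA-GFP library. At 40 min after release they were 0.29 and 0.39 in CTCF-AID and 0.21 and 0.30 in CCNA-GFP. At 60 min they reached 0.62 and 0.67 in CTCF-AID and 0.66 and 0.94 in CCNA-GFP. From 60 to 90 min the median of replicate 1 went from 0.62 to 0.32 in CTCF-AID and from 0.94 to 0.73 in CCNA-GFP. Asynchronous cells showed the same order, with medians from 0.08 to 0.16 above mitosis in CTCF-AID and from 0.25 to 0.44 in CCNA-GFP. The earlier times and the asynchronous cells were not tested here.

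**Figure D1:**
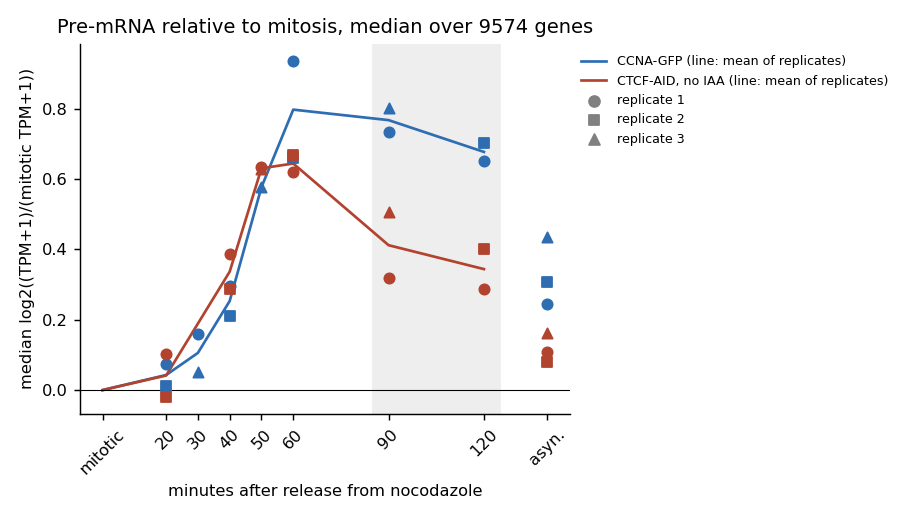
Median log2 fold change from mitosis over 9574 genes (vertical axis) against minutes after release (horizontal axis), with asynchronous cells at the right. Points are replicates, lines join the means, and the grey band marks early G1, where the CTCF-AID points (0.29 to 0.51) sit below the CCNA-GFP points (0.65 to 0.80).

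Both lines mostly rose from mitosis. In CCNA-GFP 8776 genes (91.7%) were called above mitosis and 63 (0.658%) below it, and in CTCF-AID 7232 (75.5%) above and 279 (2.91%) below. Between the lines limma called 5366 genes (56% of those tested) lower and 232 (2.42%) higher in CTCF-AID. The 232 became 127 without CCNA-GFP replicate 1, 116 where both lines had to average 1 TPM and 123 with the mean of the mitotic libraries as baseline. In 5417 genes (56.6%) the 3 CTCF-AID values all lay below the 3 CCNA-GFP values, and in 300 (3.13%) they all lay above. Of the genes called above mitosis in CCNA-GFP, 7133 were also called above mitosis in CTCF-AID, 1536 were not called there and 107 were called below mitosis. No gene was called above mitosis in CTCF-AID and below it in CCNA-GFP by limma. Without regard to calls, 284 genes (2.97%) lay below mitosis in all 3 CTCF-AID replicates and above it in all 3 CCNA-GFP replicates. In the other direction 4 genes, Ccdc166, Smc1b, Steap3 and Zfp808, lay above mitosis in all 3 CTCF-AID replicates and below in all 3 CCNA-GFP replicates.

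The size of the split rests on the scale. With each library divided by its own factor 207 genes were called higher and 5172 lower, with a median difference of -0.34. With the median of each library subtracted, 2106 genes (22%) were called higher and 1748 (18.3%) lower in CTCF-AID, and with every library scaled to the same total 1240 were called higher and 1152 lower, and the median difference between lines became -0.0074. A gene described below as lower relative to the median is one that was also called lower in the fit with the median of each library subtracted. The lines also differ in table, and line and table cannot be told apart.

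**Figure D2:**
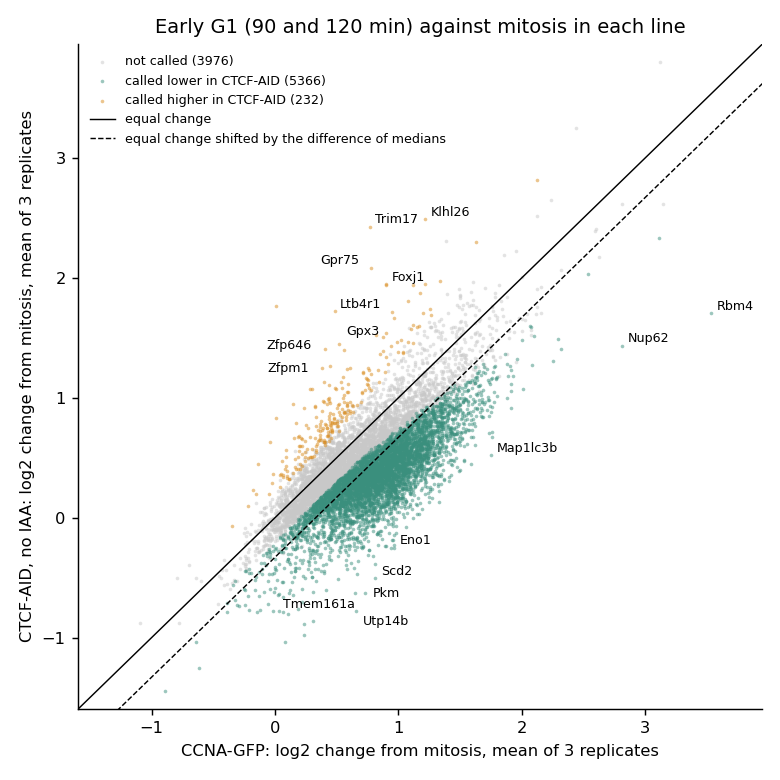
Mean log2 fold change from mitosis in early G1 in CTCF-AID (vertical axis) against CCNA-GFP (horizontal axis), 1 point per gene. Most points fall below the solid line of equal change, 5366 genes were called lower and 232 higher in CTCF-AID, and the dashed line is shifted by the difference of the medians, -0.33.

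The comparison was also made at each time. At 90 min 5002 genes (52.2%) were called lower and 226 (2.36%) higher in CTCF-AID, and at 120 min 4701 (49.1%) lower and 183 (1.91%) higher. In these fits the 4 groups of a line and a time share 1 estimate of the spread, and where a replicate is left out its line is represented by a single library at that time, which is assumed to vary like the others. Without CCNA-GFP replicate 1 the counts were 3065 lower and 36 higher at 90 min, and 1930 lower and 30 higher at 120 min. Without CCNA-GFP replicate 3 they were 2877 and 95 at 90 min, and without CCNA-GFP replicate 2 2726 genes were lower at 120 min. For the change of the line difference from 90 to 120 min limma called 1 gene (0.0104%), with 59 genes at an unadjusted p under 0.05. In each line the values of replicate 1 at both times share a mitotic library, and this fit treats them as separate. The 59 genes are fewer than the threshold alone would give without any change. The fit thus misstates the spread, and the count cannot show that the line difference stayed the same. The called gene was Chtf8, which codes for a subunit of an alternative clamp loader and was named here after its values were seen. Its pre-mRNA in CTCF-AID was 0.07 TPM at 90 min and 12.7 TPM at 120 min in replicate 1, 12.9 TPM at 120 min in replicate 2 and 11.7 TPM at 90 min in replicate 3, beside mitotic values of 0.11, 0.32 and 10.7 TPM. High and low values thus alternate between libraries of one line, and the annotation lists 2 gene models of this name that share 9704 bases on the same strand, between which reads could be split.

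Libraries of the same line were closer to each other than libraries of different lines. Across genes, log2 fold changes at the same time had a Pearson r of 0.82 to 0.92 between replicates of a line and of 0.53 to 0.76 between lines. The root mean square difference was 0.20 to 0.30 within a line and 0.39 to 0.61 between lines, and with the medians removed it was 0.18 to 0.24 and 0.28 to 0.40. Genes are not independent replicates, and these values describe the libraries only.

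Levels on either side of the fold change were set side by side, although they come from 2 tables whose library steps differ and no test was made across them. In mitosis the log2(TPM + 1) level was higher in CTCF-AID for 82.3% of genes, with a median difference of 0.23. In early G1 it was higher for 41% of genes, with a median difference of -0.07. Among the 5366 genes called lower, the mitotic level differed by a median of 0.31 and the early G1 level by -0.18. Among the 232 called higher the order was the other way, with a median of -0.02 in mitosis and 0.38 in early G1. In both sets this order was fixed by the call, since the difference in fold change is the early G1 difference in level minus the mitotic one. The differences in level carry the factors of the libraries. With each library divided by its factor, a setting chosen for the levels after seeing the data, the median difference over all genes became 0.44 in mitosis and 0.12 in early G1, and the level was higher in CTCF-AID for 93.6% and 67% of genes. Among the genes called lower the medians became 0.56 and 0.03, and among those called higher 0.12 and 0.55. The sign of the median early G1 difference in level is therefore not settled by these tables for all genes or for those called lower. For those called higher it was positive on both scales, a sign that the choice of these genes favours.

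Among called genes with non-overlapping replicates and at least 1 TPM in 1 line, the 8 largest positive differences were those of Trim17, Gpr75, Klhl26, Ltb4r1, Foxj1, Zfp646, Gpx3 and Zfpm1. Trim17 (chr11:58954685-58973098 in GRCm38, plus strand) codes for a ubiquitin ligase of the tripartite motif family. Its log2 fold changes were 2.34, 1.92 and 3.03 in CTCF-AID and 0.61, 1.04 and 0.66 in CCNA-GFP, a difference of 1.66 ± 0.27 (SE, limma adjusted p = 0.0012). All early G1 levels of CTCF-AID, from 5.37 to 8.84 TPM, lay above those of CCNA-GFP, from 0.70 to 1.53 TPM. Klhl26 (chr8:70450219-70476968, minus strand), which codes for a Kelch-like protein, was the most abundant of the 8. It went from 2.85, 4.15 and 4.66 TPM in mitosis to between 20.3 and 29.0 TPM in early G1 of CTCF-AID, and from 4.56, 3.62 and 5.43 to between 9.70 and 12.5 TPM in CCNA-GFP. The mitotic levels of the lines overlapped and the early G1 levels did not, and the fold changes differed by 1.27 ± 0.22 (adjusted p = 0.0014).

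Gpr75 and Ltb4r1 code for G protein-coupled receptors, the latter for leukotriene B4. The difference of Gpr75 was 1.31 ± 0.22, with 2.95 to 4.75 TPM in early G1 of CTCF-AID and 1.01 to 1.88 TPM in CCNA-GFP. That of Ltb4r1 was 1.24 ± 0.22, and its mitotic level was lower in CTCF-AID, 1.23 ± 0.35 TPM against 2.92 ± 0.23 TPM. Foxj1, a transcription factor of ciliated cells, differed by 1.05 ± 0.20, the zinc finger gene Zfp646 by 1.00 ± 0.22 and Zfpm1 (FOG1), a cofactor of GATA factors, by 0.87 ± 0.12. Gpx3, which codes for a secreted glutathione peroxidase, had the closest replicates, 1.51, 1.44 and 1.39 in CTCF-AID and 0.54, 0.47 and 0.56 in CCNA-GFP. Of the 8, Foxj1, Gpr75, Gpx3, Trim17 and Zfpm1 reached a mean of 1 TPM over their libraries in CTCF-AID only. Trim17 shares 2146 bases on the same strand with the histone gene Hist3h2a, Gpr75 shares 8314 of its 8372 bases with Asb3, and Zfpm1 lies within the read-through model Gm20388, so reads of these genes may be split between models.

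By the same rule the 8 largest negative differences were those of Rbm4, Utp14b, Nup62, Pkm, Scd2, Tmem161a, Map1lc3b and Eno1. Rbm4, which codes for an RNA-binding splicing regulator, had 7.84, 9.79, 9.86 and 6.82 TPM in early G1 of CTCF-AID and 10.1, 12.4, 11.2 and 9.01 TPM in CCNA-GFP. In mitosis it was listed at 0 in all 3 CCNA-GFP libraries and at 2.98, 0.805 and 2.33 TPM in CTCF-AID, so its difference of -1.83 ± 0.30 depends on the pseudocount. Nup62, which codes for a nuclear pore protein, rose in both lines, from 2.46, 1.56 and 2.46 TPM to between 6.0 and 9.40 TPM in CTCF-AID and from 0.348, 0.797 and 1.15 TPM to between 9.92 and 13.3 TPM in CCNA-GFP, and its fold changes differed by -1.38 ± 0.26. Utp14b, a ribosome biogenesis gene, differed by -1.43 ± 0.17, with fold changes of -0.84, -0.95 and -0.54 in CTCF-AID and 0.33, 0.56 and 1.07 in CCNA-GFP. These 3 genes overlap others on the same strand, Rbm4 the model Gm21992, Nup62 the gene Il4i1 and Utp14b the gene Acsl3, and their values carry that uncertainty.

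Pkm (chr9:59656368-59679375, plus strand) codes for pyruvate kinase, the last enzyme of glycolysis. Its pre-mRNA fell in CTCF-AID from 29.8, 26.4 and 31.2 TPM in mitosis to 17.7, 23.0, 15.8 and 16.2 TPM in early G1, and rose in CCNA-GFP from 12.9, 17.2 and 16.5 TPM to 25.1, 28.6, 23.3 and 26.3 TPM. On the log2(TPM + 1) scale the level in CTCF-AID differed from that in CCNA-GFP by 0.87 in mitosis and by -0.49 in early G1, and the fold changes differed by -1.36 ± 0.11 (adjusted p = 0.00029). Eno1, which codes for enolase, went from 9.29, 9.01 and 8.44 TPM to between 5.82 and 8.34 TPM in CTCF-AID and from 5.30, 7.67 and 7.34 TPM to between 10.6 and 16.2 TPM in CCNA-GFP, a difference of -1.22 ± 0.12. Scd2, a fatty acid desaturase gene, differed by -1.32 ± 0.18, the membrane protein gene Tmem161a by -1.28 ± 0.11 and Map1lc3b, which codes for the autophagosome protein LC3B, by -1.23 ± 0.21. Map1lc3b lies with all its 8400 bases in the read-through model Gm20388, and Pkm shares 3887 bases with the model Gm49759, both on the same strand. Pkm, Eno1, Scd2, Utp14b and Tmem161a were called below mitosis in CTCF-AID and above it in CCNA-GFP, as 107 genes were in all.

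**Figure D3:**
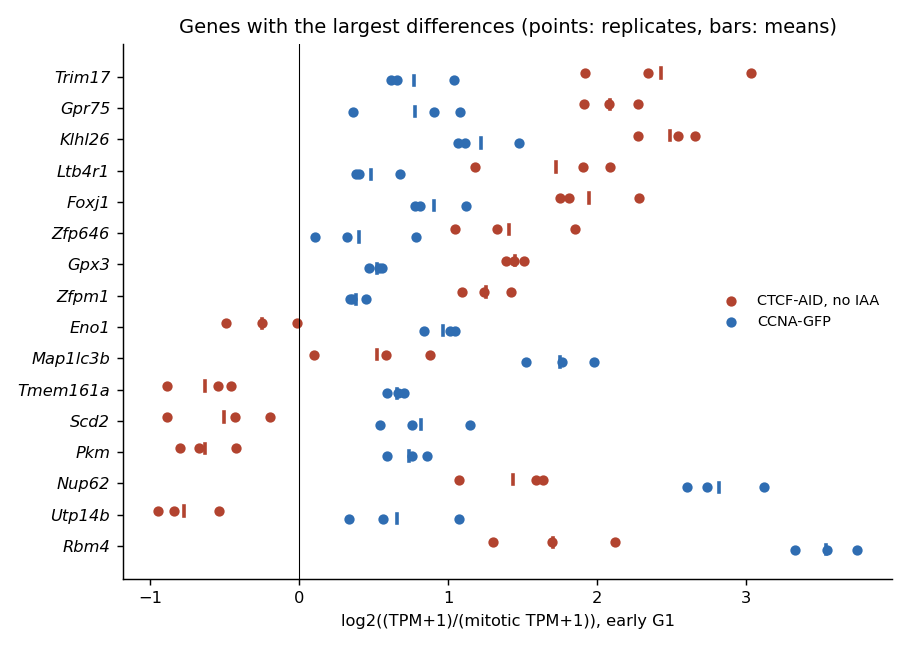
Log2 fold change from mitosis in early G1 (horizontal axis) for the 8 genes with the largest positive and the 8 with the largest negative difference between lines. Points are replicates and bars are means, and in each gene the 3 CTCF-AID points do not overlap the 3 CCNA-GFP points, as the choice of genes required.

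IAA was given to the same clone at 0.5 mM for the last 2 h in nocodazole and kept on during release to deplete CTCF. The libraries of that arm are set beside these values, with fold changes taken from its own mitotic libraries. Their median fold changes were 0.31 and 0.51 at 90 min and 0.20 and 0.49 at 120 min. With IAA the mean fold change was 2.51 for Trim17, 2.42 for Klhl26, -0.69 for Pkm and -0.11 for Eno1, beside 2.43, 2.49, -0.63 and -0.25 without it. Farther apart were Map1lc3b, with 0.95 beside 0.52, Rbm4, with 2.08 beside 1.70, and Zfp646, with 1.05 beside 1.41, and no test was made between the arms.

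The difference between lines grew with the level of the gene. The genes were split by mean TPM into 5 level classes of equal size. From the lowest class to the highest the median difference was -0.10, -0.21, -0.33, -0.43 and -0.53, and the share of genes called lower in CTCF-AID went from 24.1% to 76.3%. The pseudocount of 1 TPM shrinks the fold changes of low genes, so part of this gradient is built into the scale. In CCNA-GFP the median fold change climbed from between 0.34 and 0.44 in the lowest class to between 0.98 and 1.05 in the highest, and in CTCF-AID from between 0.22 and 0.35 to between 0.33 and 0.58. By gene length, over 9548 genes with a position, median fold changes were lower in the longest of 5 length classes than in the shortest in every replicate of both lines, while the difference between lines was -0.24 in the shortest, -0.35 in the fourth and -0.25 in the longest class. Over 20 chromosomes the median differences ran from -0.35 to -0.19.

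**Figure D4:**
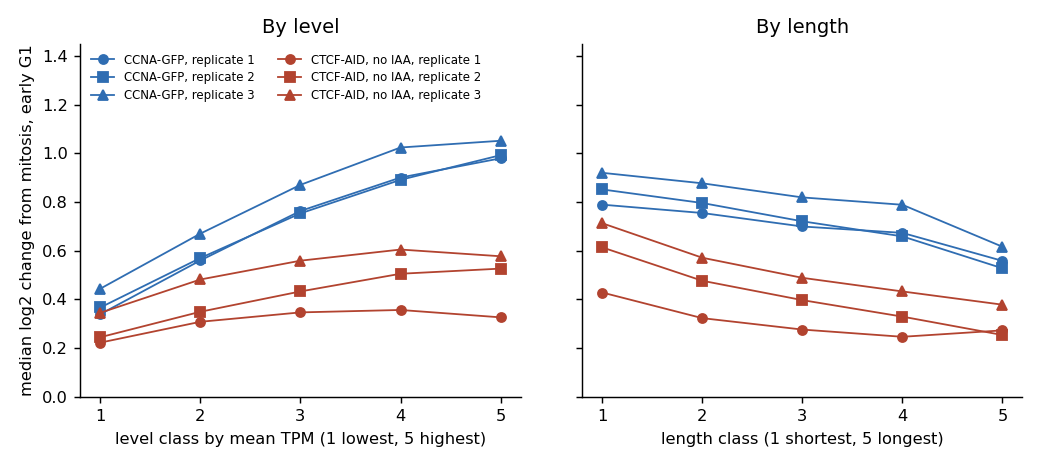
Median log2 fold change from mitosis in early G1 (vertical axis) by level class (left, 1 lowest mean TPM) and by length class (right, 1 shortest gene), 1 line per replicate. The gap between CTCF-AID and CCNA-GFP widens with level, from -0.10 to -0.53, and stays between -0.24 and -0.35 across lengths.

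The gene lists that follow are therefore read beside 3 backgrounds over all genes, 56% called lower as measured, 18.3% called lower relative to the median, and 10.5% called lower with the median of the gene's own level class subtracted, an alternative chosen after seeing the data. With the latter 13.7% of genes were called higher. No list was tested as a set.

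Chaperone genes rose from mitosis in 9 of 19 cases in CTCF-AID, beside 75.5% of all genes, and in 17 of 19 in CCNA-GFP, beside 91.7%. Chaperones fold new and damaged proteins, in the cytosol, in mitochondria and in the endoplasmic reticulum. Of 19 members measured, 16 were called lower in CTCF-AID and none higher, and the median difference was -0.72. The list's median fold changes were -0.06, 0.28 and 0.26 in CTCF-AID and 0.80, 1.01 and 0.95 in CCNA-GFP. Relative to the median 13 of 19 were called lower, and within the level classes 8 of 19. Hsp90b1 (GRP94), the HSP90 of the endoplasmic reticulum, went from 11.8, 9.06 and 10.7 TPM in mitosis to 8.48, 12.3, 7.0 and 6.90 TPM in early G1 of CTCF-AID. In CCNA-GFP it went from 4.81, 3.89 and 6.07 TPM to 10.1, 14.1, 7.19 and 7.91 TPM, so that the early G1 levels overlapped while the fold changes differed by -1.13 ± 0.17 (adjusted p = 0.00078). The cochaperone gene Stip1 differed by -0.84 ± 0.12, the cytosolic Hsp90ab1 by -0.81 ± 0.14, Hspa5 (BiP), the HSP70 of the endoplasmic reticulum, by -0.80 ± 0.16, and Hspe1, the mitochondrial HSP10, by -0.80 ± 0.16. Hspa5 was not called with the same total per library (-0.33, adjusted p = 0.115), nor Hspe1 within the level classes (-0.27, adjusted p = 0.131).

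The promoters of 3 of these genes are printed because they show the control sequences by which chaperone genes are usually told apart, and they were chosen after the values were seen. They are the 250 bases before the start of each gene in RefSeq on GRCm38.p6, 5′ to 3′ on the gene's strand. Capitals mark the endoplasmic reticulum stress element, which is CCAAT, 9 bases of any kind and CCACG, in Hsp90b1 (chr10:86705445-86705694, minus strand) and Hspa5 (chr2:34771840-34772089, plus strand), and overlapping matches of the heat shock element, which is GAA, 2 bases of any kind, TTC, 2 bases of any kind and GAA, in Hspe1 (chr1:55087898-55088147, plus strand), each searched on both strands.
Hsp90b1: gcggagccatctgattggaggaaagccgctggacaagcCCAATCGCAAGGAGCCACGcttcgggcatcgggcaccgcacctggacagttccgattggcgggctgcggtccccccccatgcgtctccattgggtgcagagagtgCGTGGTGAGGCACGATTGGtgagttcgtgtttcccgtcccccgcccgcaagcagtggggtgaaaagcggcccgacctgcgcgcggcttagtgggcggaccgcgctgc
Hspa5: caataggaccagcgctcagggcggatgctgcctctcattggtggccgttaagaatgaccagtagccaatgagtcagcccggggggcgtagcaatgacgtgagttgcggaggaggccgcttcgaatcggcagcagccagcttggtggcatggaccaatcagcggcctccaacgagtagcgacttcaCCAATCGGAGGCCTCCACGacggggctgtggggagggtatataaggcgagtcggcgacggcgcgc
Hspe1: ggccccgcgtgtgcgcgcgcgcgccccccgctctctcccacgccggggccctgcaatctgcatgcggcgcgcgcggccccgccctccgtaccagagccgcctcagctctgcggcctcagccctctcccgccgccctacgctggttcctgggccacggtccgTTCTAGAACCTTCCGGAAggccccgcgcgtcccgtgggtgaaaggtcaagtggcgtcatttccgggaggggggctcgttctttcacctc
The stress element was in 2 of the 14 chaperone promoters with a sequence and in 0.195% of 7692 promoters, and the heat shock element in 1 of 14 and in 0.338%. Genes with either element and genes with neither were called lower, and a match is a description of the sequence only.

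Glycolysis genes were lower as well. The list joins glycolytic enzymes, which turn glucose into pyruvate and lactate, with targets of the hypoxia factor HIF. Of 25 members measured, 21 were called lower in CTCF-AID and none higher, with a median difference of -0.53, and 10 of 25 were called lower relative to the median and 10 of 25 within the level classes. The list's median fold changes were 0.09, 0.10 and 0.34 in CTCF-AID and 0.77, 0.74 and 0.93 in CCNA-GFP, without overlap. After Pkm and Eno1 came Pgam1, which codes for phosphoglycerate mutase, with fold changes of 0.24, 0.64 and 0.47 in CTCF-AID and 1.56, 1.60 and 1.61 in CCNA-GFP, a difference of -1.14 ± 0.14. Ldha, the lactate dehydrogenase gene, differed by -0.46 ± 0.12 and was not called relative to the median. The promoters of Pgam1 (chr19:41911621-41911870, plus strand) and Ldha (chr7:46845554-46845803, plus strand) are shown because they carry the core of the hypoxia response element, ACGTGC, in capitals, while the genes differed in how far they departed from the median.
Pgam1: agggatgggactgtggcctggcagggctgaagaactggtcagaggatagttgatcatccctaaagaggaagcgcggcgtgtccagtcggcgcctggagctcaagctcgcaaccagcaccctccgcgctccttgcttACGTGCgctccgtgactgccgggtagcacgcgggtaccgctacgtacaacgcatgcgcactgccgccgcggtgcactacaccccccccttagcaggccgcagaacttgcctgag
Ldha: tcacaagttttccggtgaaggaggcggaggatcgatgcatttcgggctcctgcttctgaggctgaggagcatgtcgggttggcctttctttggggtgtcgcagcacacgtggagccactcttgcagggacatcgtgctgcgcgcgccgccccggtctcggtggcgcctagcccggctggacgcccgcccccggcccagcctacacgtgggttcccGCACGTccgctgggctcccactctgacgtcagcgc
The core, searched on both strands, was in 8 of 21 promoters of the list and in 7.46% of all 7692, and the list was partly drawn from known HIF targets. It shares 5 letters with the E-box, CACGTG, which was in 2 of the 21 and in 9.27% of all.

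Cholesterol and lipid synthesis genes showed, as measured, the highest share of lower calls among the lists (96.2%), while relative to the median their 53.8% was below the 68.4% of the chaperones and the 62% of ribosome biogenesis. Without CTCF-AID replicate 1, or without CCNA-GFP replicate 3, 20 of 26 were called lower, a smaller share than 16 of 19 chaperones. Cholesterol synthesis genes are driven by SREBP factors when sterols run low. Of 26 measured, 25 were called lower in CTCF-AID and none higher, with a median difference of -0.61, 14 of them relative to the median and 12 within the level classes. Median fold changes of the list were -0.01, 0.19 and 0.42 in CTCF-AID and 0.63, 0.73 and 1.05 in CCNA-GFP. Insig1, which holds SREBP back when sterols are plentiful, differed by -1.12 ± 0.20 beside -1.32 for Scd2. Over the list the mitotic level was higher in CTCF-AID by a median of 0.59 and the early G1 level differed by -0.04.

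Genes of ribosome production were lower in most cases, and most of them are highly expressed. Of 75 ribosomal protein genes, 59 were called lower in CTCF-AID and none higher, with a median difference of -0.61, and 66 of the 75 lay in the highest level class. Relative to the median 35 were called lower, and within the level classes 8 (10.7%), near the background of 10.5%. Rps15a differed by -1.04 ± 0.11, Rpl24 by -1.02 ± 0.15 and Rpl18 by -0.95 ± 0.13. Of 50 ribosome biogenesis genes, 42 were called lower and none higher, 31 relative to the median and 15 (30%) within the level classes. Ddx21, an RNA helicase of the nucleolus, had fold changes of -0.61, -0.39 and -0.30 in CTCF-AID and 0.52, 0.55 and 0.69 in CCNA-GFP, a difference of -1.01 ± 0.09. Bop1, which acts in large subunit assembly, differed by -0.98 ± 0.13 and Taf1d, a subunit of the RNA polymerase I factor SL1, by -0.97 ± 0.10.

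Pluripotency genes keep ES cells undifferentiated. Of 26 measured, 15 (57.7%) were called lower in CTCF-AID beside 56% of all genes, and none higher, with a median difference of -0.62. With the replicate block 21 of 26 were called lower, beside 5920 of all 9574 genes. Among the 24 with a mean of at least 1 TPM in each line 20 were, beside 4602 of the 6577 genes that passed this filter. Relative to the median 10 of 26 were called lower and within the level classes 3 of 26. Lin28a, which codes for an inhibitor of let-7 processing, fell in CTCF-AID, with fold changes of -1.24, -0.89 and -0.81 beside 0.09, 0.07 and 0.55 in CCNA-GFP, a difference of -1.22 ± 0.15 (adjusted p = 0.00045). Dppa2, a chromatin factor of early embryos, had -0.18, -0.04 and -0.12 against 0.83, 0.86 and 0.90, a difference of -0.97 ± 0.08. Among the transcription factors, Tfcp2l1 differed by -0.82 ± 0.15, Esrrb by -0.73 ± 0.13, Pou5f1 by -0.72 ± 0.17, Zfp42 by -0.65 ± 0.18 and Nanog by -0.62 ± 0.14. The fold changes of Pou5f1 were -0.36, 0.31 and 0.10 in CTCF-AID and 0.51, 1.01 and 0.69 in CCNA-GFP, so that no value overlapped, and Zfp42 was not called relative to the median. With the same total per library Pou5f1, Nanog, Zfp42 and Dnmt3l, described next, were not called. Of 10 formative and primed genes 4 (40%) were called lower, beside 56% of all genes, and relative to the median 3 were lower and 4 (40%) higher, beside 22% of all genes. The 4 lower as measured were the DNA methyltransferase gene Dnmt3b (-1.13 ± 0.16), its cofactor Dnmt3l (-0.99 ± 0.21), the ETS factor gene Etv5 (-0.77 ± 0.10) and the growth factor gene Fgf15 (-0.33 ± 0.13).

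Signalling genes were mixed. Of 21 LIF and Wnt genes 10 were called lower, among them Il6st, the gp130 receptor subunit through which LIF acts (-1.05 ± 0.17), and the kinase gene Pim1 (-0.95 ± 0.16). Of 15 FGF-ERK feedback genes 8 were called lower, including the inhibitor gene Spry2 (-0.94 ± 0.28) and the receptor gene Epha2 (-0.80 ± 0.12), both not called with the same total per library (adjusted p = 0.19 and 0.17). Fosl1, an AP-1 factor that stands in that list and among the immediate early genes, was higher, with fold changes of 2.03, 1.92 and 1.97 in CTCF-AID and 1.21, 1.47 and 1.34 in CCNA-GFP, a difference of 0.64 ± 0.19 (adjusted p = 0.016) that was not called at a pseudocount of 0.1 TPM (0.63, adjusted p = 0.23). Of 17 immediate early genes, 6 were called lower, Zfp36l1 by -0.75 ± 0.18, and 1 higher. With the same total per library Zfp36l1 was not called (-0.24, adjusted p = 0.34). Among 18 actin, SRF and YAP target genes 6 were called lower, with Amotl2, an angiomotin-like YAP partner, at -1.05 ± 0.17. Of 21 BMP and Nodal genes 9 were called lower, of 17 MYC network genes 11 and of 21 imprinted genes 14. Relative to the median these 3 lists held 5, 3 and 4 genes called higher and 2, 2 and 5 called lower. Of 13 interferon response genes 5 were called lower, Trim25, Ifitm1, Ifitm3, Irf1 and Ddx58, by -0.98 to -0.49, and the peptide transporter gene Tap1 was higher (0.66 ± 0.13). With the median subtracted the LIF and Wnt list held 4 genes called higher and 4 lower, the FGF-ERK list 2 and 3, the immediate early list 3 and 1, the actin, SRF and YAP list 3 and 4, and the interferon list 2 and 2.

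With the median subtracted the p53 list had a median difference of 0.30. Other lists were positive as well, such as interferon (0.18), formative and primed (0.15), immediate early (0.13) and G1/S (0.11). The p53 protein restrains the cycle after damage or a long mitosis. Of 22 measured, 3 (13.6%) were called lower beside 56% of all genes, Trp53 itself (-0.83 ± 0.18), the stress gene Sesn2 (-0.49 ± 0.18) and the cell death gene Bax (-0.36 ± 0.16), of which Sesn2 and Bax turned sign with the same total per library. Called higher were Trp53inp1 (0.49 ± 0.18) and the p53 relative Trp73 (0.45 ± 0.11). The call of Trp53inp1 was lost without CTCF-AID replicate 2 (adjusted p = 0.144), CCNA-GFP replicate 1 (0.153) or CCNA-GFP replicate 3 (0.154), and those of Sesn2 and Bax were also lost when single replicates were left out. The median difference was -0.03. Relative to the median 10 of 22 were called higher, beside 22% of all genes, and within the level classes 14 of 22, beside 13.7%. The list's median fold changes were 0.88, 1.24 and 1.14 in CTCF-AID and 1.18, 1.37 and 1.23 in CCNA-GFP, which overlapped, although CTCF-AID was lower in each same-numbered pair. Trp73 had 0.98, 1.15 and 1.01 against 0.53, 0.60 and 0.65.

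Cell cycle genes were lower in shares from 48.1% to 71.1%, beside 56% of all genes. Of 38 genes of G2, mitosis and the spindle, 27 (71.1%) were called lower and 1, the Aurora kinase gene Aurkb, higher (0.52 ± 0.16). Relative to the median 6 (15.8%) were called lower, beside 18.3% of all genes, and within the level classes 2 lower and 6 higher. Aurka, the other mitotic Aurora kinase gene of the list, had fold changes of -0.74, -0.59 and -0.60 in CTCF-AID and -0.15, 0.01 and 0.21 in CCNA-GFP, a difference of -0.67 ± 0.10. With the same total per library Aurka was not called (-0.27, adjusted p = 0.13). Ect2, which acts in cytokinesis, differed by -0.83 ± 0.11. Of 27 G1/S genes 13 (48.1%) were called lower, among them Cdkn1b (p27), an inhibitor of cyclin-dependent kinases (-0.89 ± 0.18), and Cdk2 (-0.87 ± 0.22). Of the G1/S genes 6 were called higher and 4 lower relative to the median, and within the level classes 5 and 2. Of 48 replication genes 28 (58.3%) were called lower as measured, 11 lower and 5 higher relative to the median, and 2 lower and 12 (25%) higher within the level classes, Dbf4, the partner of the CDC7 kinase, by -0.96 ± 0.08 and the helicase gene Mcm5 by -0.83 ± 0.18 as measured. Of 17 tubulin genes and cofactors 11 were called lower and 7 relative to the median, led by Tuba1a (-1.11 ± 0.18), Tuba1b (-1.01 ± 0.13) and Tuba1c (-0.94 ± 0.10), whose sequences are alike enough for reads to be shared. Of 24 genes of the integrated stress response 17 were called lower, and relative to the median 6 lower and 5 higher, with the seryl-tRNA synthetase gene Sars at -0.95 ± 0.15.

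Ctcf and Ccna2 give the lines their names. Ctcf, whose protein carries the degron, had early G1 fold changes of 0.30, 0.47 and 0.54 in CTCF-AID and 0.73, 0.76 and 0.84 in CCNA-GFP, a difference of -0.34 ± 0.10 (adjusted p = 0.017), -0.01 relative to the median and 0.085 with the same total per library, and it was not called with the mean of the 3 mitotic libraries as baseline (adjusted p = 0.12). Its level was 8.83 ± 1.49 TPM (SD, n = 3) in early G1 of CTCF-AID and 5.85 ± 0.62 TPM in CCNA-GFP, and 6.22 and 2.99 TPM in mitosis. Ccna2, the cyclin A2 gene, had 0.46, 1.03 and 0.67 against 0.73, 0.86 and 1.10, a difference of -0.17 ± 0.16 that did not pass (adjusted p = 0.38). Of 17 genes of Ctcf, cohesin and partners 16 were called lower, 6 relative to the median and 1 within the level classes. The cohesin subunit gene Rad21 differed by -0.73 ± 0.12 and Cdca5 (sororin), which holds cohesin on replicated DNA, by -0.72 ± 0.15. With the same total per library Cdca5 was not called (-0.28, adjusted p = 0.12).

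**Figure D5:**
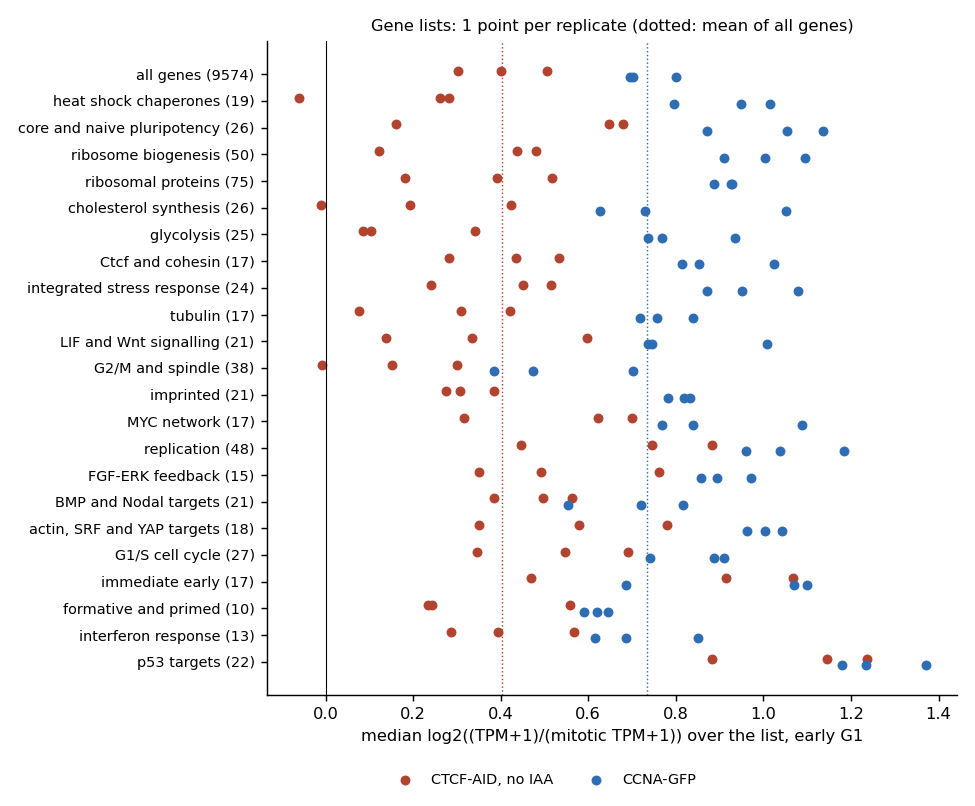
Median log2 fold change from mitosis over each gene list (horizontal axis), 1 point per replicate, for lists with 10 or more genes measured, the number of which stands in brackets. Dotted lines mark the mean over all genes, 0.40 in CTCF-AID and 0.73 in CCNA-GFP, the chaperone points lie at -0.06 to 0.28 in CTCF-AID and 0.80 to 1.01 in CCNA-GFP, and the p53 points, at 0.88 to 1.24 and 1.18 to 1.37, overlap.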

How the data were processed

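Total RNA was ribo-depleted and sequenced as stranded paired ends. The authors aligned reads with STAR to mm10, quantified them with RSEM against Gencode genes with an added pre-mRNA isoform, and deposited pre-mRNA TPM per library as 1 table per line, for RefSeq curated genes with a mean above 0.5 TPM in asynchronous cells or in 2 or more samples after mitosis. The lowest values of each library, the only ones checked, are multiples of a step that differs between libraries. The step was 2.17 to 3.67 times the 0.01 TPM in which RSEM writes its values. The reason is not given in the sources used here, so reads cannot be recovered and depth is unknown. The sums of listed TPM were 13640 to 23072 in mitosis and 28078 to 40780 in early G1. The members and gene lists were chosen with earlier results of these data known. Log2 fold changes were tested with limma 3.58.1 in R 4.3.3 (trended eBayes, Benjamini-Hochberg over 9574 genes), and medians with the exact permutation test (scipy 1.17.1). On simulated data with 200 changed genes the early G1 test recovered 54% of differences of 0.5 and 91% of differences of 1. The 90 min test recovered 27.5% and 82%, and 6.78% to 12.3% of calls were false in these runs. The 200 genes were changed equally often in both directions among 9574, while 56% of genes were called lower in the data. These rates thus need not hold for the data. Named were the 8 largest differences in each direction among called genes whose replicates did not overlap between lines, with at least 1 TPM in 1 line and a symbol other than a provisional model, microRNA or small nucleolar RNA name, up to 3 members of each list with the largest differences, and Ctcf and Ccna2. Other genes (the ES markers, Aurkb, Trp73, Bax, Hspa5, Hspe1, Ldha, Chtf8 and the marker genes called) were added for the text, and some members of the lists that the rule named are not reported here. Gene positions are from Gencode on GRCm38. Promoters were those of RefSeq, matched for 7692 of the 9574 genes. Same-numbered replicates of the 2 lines deviated together (Pearson r 0.35, 0.35 and 0.45 across genes, other pairs -0.29 to -0.03), so the numbers were taken to pair samples, although a number also fixes the times sampled. The main fit and the exact test did not use this pairing, and a fit with the replicate number as block was run as an alternative. Alternatives covered the pseudocount, a filter on low values, scaling, baseline, block, trend, threshold and each replicate left out. Columns of other arms and times were used only where stated.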

Additional observations from a re-analysis of the deposited data

Results flagged for a closer look

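The counts of genes and the named genes below are those for which limma found a difference between the lines in the change from mitosis. The genes are the 67 called ones for which alternatives were run. Called genes without such runs are named above only, among them Tap1, Trim25, Ifitm1, Ifitm3, Irf1, Ddx58, Fgf15 and marker genes such as Fn1. In early G1 232 genes were higher and 5366 lower in CTCF-AID, at 90 min 226 and 5002, and at 120 min 183 and 4701. The values in brackets are differences in early G1 log2 fold change, CTCF-AID minus CCNA-GFP.

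Higher in CTCF-AID were Chtf8 (1.76), Trim17 (1.66), Gpr75 (1.31), Klhl26 (1.27), Ltb4r1 (1.24), Foxj1 (1.05), Zfp646 (1.00), Gpx3 (0.93), Zfpm1 (0.87), Fosl1 (0.64), Aurkb (0.52), Trp53inp1 (0.49) and Trp73 (0.45). The replicates of Chtf8 overlapped between the lines, and its libraries swung between near 0 and 12.9 TPM.

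Lower by 1 or more on the log2 scale were Rbm4 (-1.83), Utp14b (-1.43), Nup62 (-1.38), Pkm (-1.36), Scd2 (-1.32), Tmem161a (-1.28), Map1lc3b (-1.23), Eno1 (-1.22), Lin28a (-1.22), Pgam1 (-1.14), Dnmt3b (-1.13), Hsp90b1 (-1.13), Insig1 (-1.12), Tuba1a (-1.11), Amotl2 (-1.05), Il6st (-1.05), Rps15a (-1.04), Rpl24 (-1.02), Ddx21 (-1.01) and Tuba1b (-1.01). Between -1 and -0.8 lay Dnmt3l (-0.99), Bop1 (-0.98), Taf1d (-0.97), Dppa2 (-0.97), Dbf4 (-0.96), Pim1 (-0.95), Sars (-0.95), Rpl18 (-0.95), Spry2 (-0.94), Tuba1c (-0.94), Cdkn1b (-0.89), Cdk2 (-0.87), Stip1 (-0.84), Mcm5 (-0.83), Ect2 (-0.83), Trp53 (-0.83), Tfcp2l1 (-0.82) and Hsp90ab1 (-0.81). The smaller called differences were those of Hspe1 (-0.80), Epha2 (-0.80), Hspa5 (-0.80), Etv5 (-0.77), Zfp36l1 (-0.75), Rad21 (-0.73), Esrrb (-0.73), Cdca5 (-0.72), Pou5f1 (-0.72), Aurka (-0.67), Zfp42 (-0.65), Nanog (-0.62), Sesn2 (-0.49), Ldha (-0.46), Bax (-0.36) and Ctcf (-0.34). Line and table cannot be told apart in any of these.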

How the results depend on the processing

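The counts moved most with scaling. With every library at the same total, the counts of higher and lower genes were 1240 and 1152 in early G1, 1025 and 868 at 90 min and 683 and 595 at 120 min, and the median difference between lines became -0.0074 in early G1, 0.0085 at 90 min, a change of sign, and -0.014 at 120 min. With the median subtracted the counts were 2106 and 1748, 2021 and 1717, and 1426 and 1144. With the median of the level class subtracted, chosen after seeing the data, they were 1316 and 1005, 1243 and 972, and 818 and 512. A filter at a mean of 1 TPM in each line left 116, 107 and 93 genes higher and moved the medians to -0.42, -0.46 and -0.41. A pseudocount of 0.1 TPM gave medians of -0.54, -0.57 and -0.56, and 0.5 TPM gave -0.42 at 120 min. The mean of the mitotic libraries as baseline gave 123 genes higher in early G1 and 108 at 90 min, and an adjusted p under 0.05 gave 133 at 90 min. Leaving out replicates gave 127 to 283 genes higher and 4301 to 5966 lower in early G1, 36 to 292 and 2877 to 5675 at 90 min, and 30 to 198 and 1930 to 4599 at 120 min. The lowest counts of higher genes, 127, 36 and 30, came without CCNA-GFP replicate 1, which also left 3065 lower at 90 min and 1930 at 120 min. Without CCNA-GFP replicate 3 the counts at 90 min were 95 and 2877, and without CCNA-GFP replicate 2 2726 were lower at 120 min. Medians stayed between -0.38 and -0.28 in early G1, -0.45 and -0.26 at 90 min, and -0.39 and -0.28 at 120 min. Divided by the factor of each library, chosen after seeing the data, the median difference in level became 0.44 in mitosis and 0.12 in early G1, a change of sign. The causes were not tested.

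With the same total per library, members called lower were 9 of 19 chaperone, 14 of 26 cholesterol, 11 of 25 glycolysis and 20 of 50 ribosome biogenesis genes. They were also 13 of 75 ribosomal protein, 4 of 26 pluripotency, 1 of 17 Ctcf and cohesin and 5 of 17 tubulin genes. Of all 9574 genes 1152 were called lower at that scale. With the median subtracted the moved counts were 14 for cholesterol, 10 for glycolysis, 35 for ribosomal proteins, 6 for Ctcf and cohesin and 7 for tubulin. Within the level classes they were 8, 12, 10, 15, 8, 3, 1 and 5 in the order in which the lists were first given.

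With the replicate block 313 genes were higher and 5920 lower in early G1. The block changed no call among the 68 named genes for which alternatives were run, and other named genes had no such runs. Of these 68 genes 45 kept direction and call under every alternative run for them, and 62 under all but those that fix the total or subtract a median. The filter at 1 TPM removed 6 of the 68 (Cdkn1b, Foxj1, Gpr75, Gpx3, Trim17 and Zfpm1). With the same total Dnmt3l, Spry2, Epha2, Zfp36l1, Cdca5, Aurka, Pou5f1, Nanog, Zfp42, Hspa5 and Ldha were no longer called. Within the level classes all of these but Dnmt3l and Hspa5 also lost the call, as did Tfcp2l1, Trp53, Cdk2, Mcm5 and Hspe1, and with the median subtracted Zfp42, Ldha, Sesn2, Bax and Ctcf did. With the mean mitotic baseline Ctcf and Bax were not called, although their differences were still -0.34 and -0.36. At a pseudocount of 0.1 TPM Fosl1, Bax and Chtf8 were not called, with differences of 0.63, -0.37 and 2.12. Bax was not called at an adjusted p under 0.05 either (0.089). The sign turned for Sesn2 (0.031 at the same total, 0.043 within level classes), Ctcf (0.085 and 0.19), Bax (0.17 and 0.18) and Ccna2 (0.17 and 0.17, and 0.15 with the median subtracted). Leaving out 1 replicate, its mitotic library included, ended the call of Trp53inp1 (CTCF-AID replicate 2, 0.37, and CCNA-GFP replicates 1 and 3, 0.42 and 0.43), Sesn2 (CTCF-AID replicate 1, -0.32, and CCNA-GFP replicates 2 and 3, -0.44 each) and Bax (CTCF-AID replicate 1 and each CCNA-GFP replicate, -0.41 to -0.24). The median has no value of its own once a median is subtracted, or under another trend, threshold or fit.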
